A study of Mus musculus with 20 samples.

Results

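Among 51424 regions of open chromatin in mouse brain endothelial cells, 625 (1.22%) were called in most libraries of the 2 older ages and in few of the 2 younger ones. The members were chosen by the calls themselves. All 20 deposited peak lists were joined into regions of peaks overlapping by at least 1 bp on chromosomes 1 to 19. A member is a region with a peak in at most 2 of the 9 libraries of 2 and 6 months and in at least 9 of the 11 libraries of 12 and 18 months. The difference in calls between younger and older libraries is therefore a description and was not tested.

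The series asks how chromatin accessibility of the cerebral endothelium differs over adult life, in the setting of the blood-brain barrier and of bleeding in the brain. Each library came from FACS-enriched endothelial cells of the brain of wild-type C57BL/6 mice. The sample titles read as 1 animal per library, but the protocol at hand does not say so in full, so replicates are libraries here and p-values measure the spread between them. The age of 2 months has 4 libraries (1 male, 3 females), 6 months has 5 (2 males, 3 females), 12 months has 5 (2 males, 3 females) and 18 months has 6 (3 males, 3 females). The labels name no treatment and no altered allele in any group, so the groups differ by age, by the mix of sexes, and by library number. By their library numbers the libraries form 3 runs, called sets: set 1 has 3 libraries of 18 months, set 2 has 2 months replicate 1, all of 12 months and 3 of 18 months, and set 3 has the other 8 younger libraries. The labels do not call the sets batches, and age and set can be told apart only through 2 months replicate 1.

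Assay for transposase-accessible chromatin sequencing (ATAC-seq) marks DNA that is free of nucleosomes, where the Tn5 transposase can insert adapters. In endothelial cells, as elsewhere, such DNA lies at promoters, which are often open in all cell types, and at enhancers inside and between genes, which carry most of what sets one cell type or state apart from another. A peak call is a threshold on a continuous signal, so a weak site can be called in one library and missed in the next with little change in its openness.

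Some promoters among the members can be read directly. RefSeq promoter windows of GRCm38.p6, the assembly that mm10 names, run from 250 bases before to 50 after a start site. No windows were used for 1 of the 19 chromosomes. At least 150 bases of 56 windows of 54 genes lay in members. Below are the 4 windows, 1 a gene, of the members named by the rules of this report, each 5′ to 3′ on the strand of its gene. They are shown because they are the stretches of member sequence at hand beside named values. Capitals mark matches on either strand to AP-1 (TGANTCA), CRE (TGACGTCA), E-box (CACGTG), ETS (CCGGAAG), GC-box (GGGCGG) or CCAAT box (CCAAT). None of these strings contains another.
Tmcc2, chr1:132367899-132368198, minus strand: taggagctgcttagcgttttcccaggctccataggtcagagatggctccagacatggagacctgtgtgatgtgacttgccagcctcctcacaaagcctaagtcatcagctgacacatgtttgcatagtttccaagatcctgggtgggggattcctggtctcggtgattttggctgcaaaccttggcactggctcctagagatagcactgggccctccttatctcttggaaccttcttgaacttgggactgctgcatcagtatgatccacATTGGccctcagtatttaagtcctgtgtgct
Mndal, chr1:173880138-173880437, minus strand: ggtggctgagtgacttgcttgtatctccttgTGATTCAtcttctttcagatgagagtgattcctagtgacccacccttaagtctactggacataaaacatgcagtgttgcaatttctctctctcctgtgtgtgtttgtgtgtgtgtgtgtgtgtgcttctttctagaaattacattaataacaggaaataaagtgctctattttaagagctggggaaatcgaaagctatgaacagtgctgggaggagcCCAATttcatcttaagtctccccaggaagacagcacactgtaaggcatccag
Tapbp, chr17:33919228-33919527, plus strand: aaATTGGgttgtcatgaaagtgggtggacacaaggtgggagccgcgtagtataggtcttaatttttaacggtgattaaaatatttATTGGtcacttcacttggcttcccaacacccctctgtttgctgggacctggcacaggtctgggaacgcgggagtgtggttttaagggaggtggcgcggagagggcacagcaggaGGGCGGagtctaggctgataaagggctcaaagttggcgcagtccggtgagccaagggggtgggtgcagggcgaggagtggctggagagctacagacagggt
Snapc4, chr2:26380604-26380903, minus strand: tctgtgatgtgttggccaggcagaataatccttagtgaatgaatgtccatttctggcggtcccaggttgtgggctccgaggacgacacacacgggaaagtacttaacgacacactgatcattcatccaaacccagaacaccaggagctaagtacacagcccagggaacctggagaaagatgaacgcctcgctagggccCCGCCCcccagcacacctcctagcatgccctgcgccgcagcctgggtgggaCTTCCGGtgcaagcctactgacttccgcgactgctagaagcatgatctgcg
The windows of Tapbp, whose protein loads peptides onto class I molecules, and of Snapc4, a subunit of the complex that starts transcription of small nuclear RNAs, held 11 and 14 CpG dinucleotides and 1 GC-box each. Those of Tmcc2, a membrane protein with coiled coils, and of Mndal, an interferon-inducible nuclear protein, held 2 and 1 and no GC-box.

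Over the 56 member windows the median GC content was 56.8% and the median number of CpG dinucleotides 13. The 450 windows in other regions called by as many libraries (9 to 13) had 60.3% and 18, the 11584 windows in all regions 62.3% and 22, and all 31396 windows of the genome 53% and 7. A CCAAT box was found in 30 of the 56 (53.6%), against 29.3% of windows in regions of like call count, 37.7% of those in all regions and 37.3% of all windows. The GC-box was found in 51.8%, against 56.9%, 67.6% and 36.0%. The ETS string, read by a family of factors central to endothelial identity, was found in 10.7%, against 15.1%, 19.2% and 9.00%. AP-1, the site of Fos and Jun proteins, was found in 7.14%, against 7.56%, 4.48% and 7.84%. The GATA string (AGATAA) was found in 1 window (1.79%), against 9.11%, 5.17% and 11.2%. These 5 of 17 strings searched are counts of letters in small numbers of windows and were not tested. Among the other strings, the D-box (TTANNTAA) was found in 7.14% of member windows, against 2.67% of those in regions of like call count. The CTCF core (AGGGGGCG) was found in 7.14% against 12.7%. Windows of 1 gene can overlap, as those of Mndal do.

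The members sat at the limits of the rule more often than well inside them. Of the 625, 228 had exactly 2 younger and 9 older calls. Only 4 were called by all 11 older libraries and by no younger one, and 42 in all had no younger call. Younger libraries made 996 calls on members. Of these, 460 (46.2%) came from 2 months replicate 4, whose list is the longest of the younger ones with 35203 peaks, and 174 (17.5%) from 6 months replicate 1. Older libraries missed members 918 times, and 371 of the misses (40.4%) fell in 12 months replicate 4, whose list of 22530 peaks is the shortest of the older ones. The count of members depends on such libraries. With 1 library left out and the limits of 2 calling and 2 missing kept for the rest, it was 941 without 2 months replicate 3, 1260 without 2 months replicate 4, 1030 without 6 months replicate 1 and 1078 without 12 months replicate 4.

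At 2 months, replicates 1 to 4 called 51, 45, 122 and 460 of the members. At 6 months, replicates 1 to 5 called 174, 35, 27, 50 and 32. At 12 months, the numbers were 522, 573, 563, 254 and 544. At 18 months they ran from 471 through a median of 609 to 620. By the rule the older libraries call more. Within the pair of older ages, which the rule does not part, 78.6% of possible calls were made at 12 months and 93.4% at 18 months. Over all regions the mean share called was 47.8% at 12 and 59.0% at 18 months, where lists were longer.

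A library left out of the choice gives a value the rule did not use. For each library in turn the rule was applied to the other 19, with at most 2 younger libraries calling and at most 2 older ones missing, and the share of those regions that the left-out library called was taken. Each share is given with no test, since it covers counting error only. At 2 months, replicates 1 to 4 called 18.7%, 24.5%, 46.5% and 86.9%. At 6 months, replicates 1 to 5 called 56.2%, 17.7%, 12.7%, 27.8% and 19.3%. At 12 months the shares were 61.2%, 73.2%, 70.2%, 23.6% and 70.5%. At 18 months the lowest was 51.1%, the median 91.4% and the highest 97.3%. The ages overlapped: 2 months replicate 4 lay above every library of 12 months, and 12 months replicate 4 lay below 5 of the 9 younger ones.

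Longer lists tended to give higher shares at both younger and older ages. With 34116 peaks on chromosomes 1 to 19, 2 months replicate 4 called 86.9% (exact 95% interval 84.9 to 88.7), and with 33772 peaks 18 months replicate 1 called 92.0% (89.6 to 93.9). With 20640 peaks, 2 months replicate 1 called 18.7% (15.9 to 21.8), and with 21779 peaks 12 months replicate 4 called 23.6% (21.1 to 26.2). With 25804 peaks, 6 months replicate 1 called 56.2% (53.1 to 59.3), and with 24879 peaks 18 months replicate 4 called 51.1% (47.8 to 54.4). Over all regions, by comparison, the share a library called ran from 35.3% to 69.2%. With 25997 peaks, 2 months replicate 3 called 46.5% (43.3 to 49.8), and with 26558 peaks 12 months replicate 1 called 61.2% (57.8 to 64.5). These 4 pairs of like length were picked after the values were seen. The older library lay higher in each pair but that of 6 months replicate 1 and 18 months replicate 4, where the younger one did. Each share is over its own set of regions and the intervals cover counting error only. A pair of single libraries is thus no test of age.

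Next, only the strongest 19144 peaks per list were used, the length of the shortest list on chromosomes 1 to 19. The shares of younger and older libraries parted, though intervals at the border overlapped. Replicates 1 to 4 of 2 months then called 33.6%, 33.6%, 35.3% and 52.3% of regions chosen without them, and replicates 1 to 5 of 6 months called 47.0%, 42.6%, 31.7%, 31.4% and 39.9%. Those of 12 months called 62.0%, 69.5%, 59.6%, 56.1% and 62.2%. At 18 months the lowest share was 66.2%, the median 79.6% and the highest 83.9%. No younger library reached the lowest older one. The nearest 2 had overlapping exact intervals, 44.6 to 59.9 for 2 months replicate 4 and 47.7 to 64.2 for 12 months replicate 4. Over all regions the libraries called a like share, 56.8% to 60.1%, which the common list length largely sets in advance. The single younger library of set 2, 2 months replicate 1, lay at 33.6% (exact interval 25.7 to 42.1), in the younger range, whereas the 8 older libraries of its set lay between 56.1% and 83.9%. Each share is over its own choice of regions, and 1 library is no test of age against set.

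**Figure D1:**
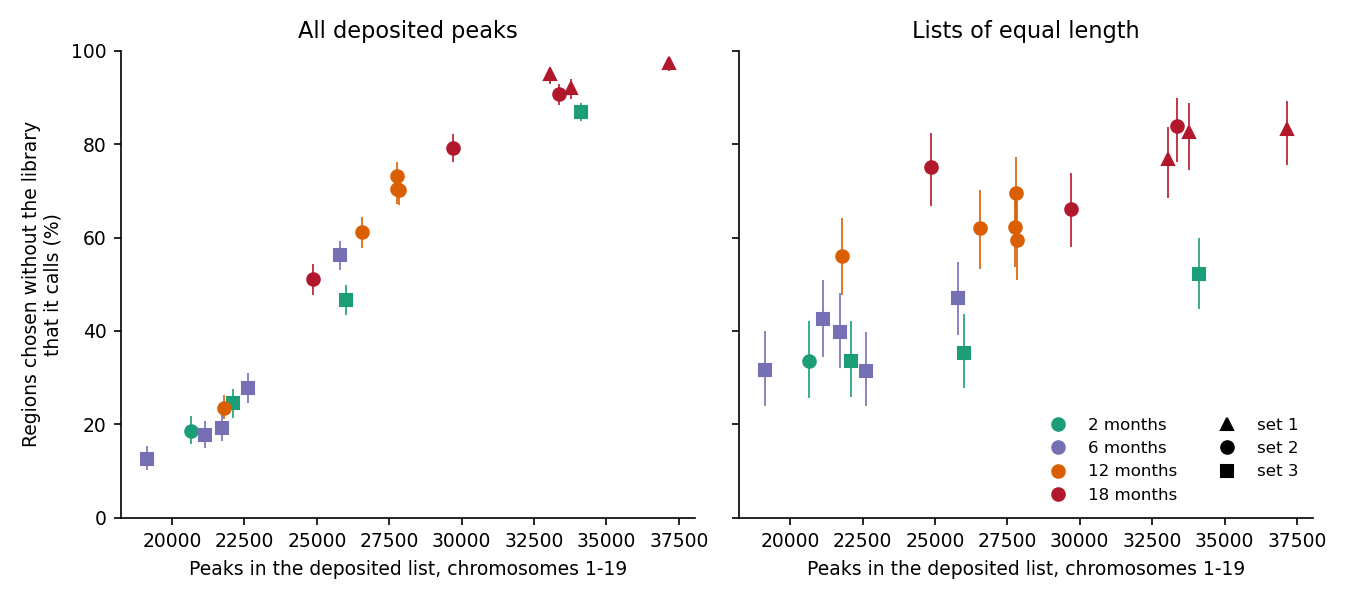
Share of regions chosen without a library that this library calls (vertical axis, %), against the number of peaks in its deposited list on chromosomes 1 to 19, for all deposited peaks (left) and for lists of equal length (right). Points are libraries with exact 95% intervals, colours are ages and shapes are library sets: on the left 2 months replicate 4 (86.9%) sits among the libraries of 18 months, and on the right all 9 younger libraries (up to 52.3%) sit below all 11 older ones (from 56.1%). Intervals at that border overlap.

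The regions behind these equal-length shares are for the most part not the 625. In equal-length lists the rule was met by 109 of 31469 regions (0.346%). Of the 625 members, 17 (2.72%) met it in both, and these 17 are 15.6% of the 109. The other 92 were called by more than 2 younger libraries in the full lists, with a median of 4, and by at least 9 older ones. Of the members, 76 had no peak in any equal-length list and 368 had none in the younger equal-length lists, while 82 had one in at least 6 older ones. Most members were thus called from peaks too weak to stay in a list of the strongest 19144.

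Members were weak peaks. In bulk chromatin a weak peak can stand for few open cells or for a slight opening in all, and these cannot be told apart. In each older library that called a member, its strongest peak was placed by percentile in that library's full list, with 100 for the strongest, and averaged over those libraries. The median over members was 26.6, and the range 7.50 to 59.9. The 21540 regions called by at least 9 older libraries, whatever the younger calls, had a median of 61.2. Other regions called by 9 to 13 libraries had 25.7. Only 8 members lay over 50. The median pileup at the summit, recovered from the authors' fold and p, was 20 fragments or reads over a local background of 3.26, and 15 members had a local background over 10.

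**Figure D2:**
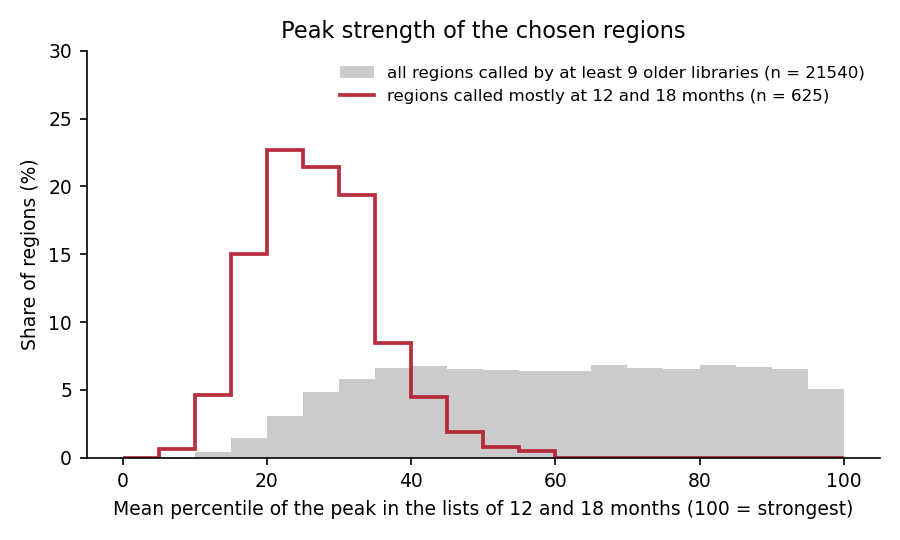
Distribution of mean peak percentile in the lists of 12 and 18 months (horizontal axis, 100 for the strongest peak) as a share of regions (vertical axis, %). The line shows the 625 members, with a median of 26.6, and the grey area the 21540 regions called by at least 9 older libraries, with a median of 61.2.

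Regions on both sides of the limits looked alike. The 228 members with 2 younger and 9 older calls had a median percentile of 25.9 and a median width of 587.5 bp. The 671 regions just outside with 3 younger calls and at least 9 older ones had 28.5 and 625 bp. The 560 with 8 older and at most 2 younger calls had 23.5 and 552.5 bp.

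The 4 regions called by all 11 older and no younger library were of modest strength. A region at chr4:139007450-139008319 inside Tmco4, a membrane protein gene, had folds of 4.69, 3.86, 4.85, 3.43 and 3.76 in replicates 1 to 5 of 12 months. At 18 months its folds were 4.69, 7.18 and 8.57 (lowest, median, highest), so 1 library of 18 months fell within the range of 12 months and the other 5 lay above it. Fold is the enrichment at a peak's summit over its local background, as the authors deposited it. A region at chr17:36205338-36206227, 15187 bp from an end of H2-T3, a class I histocompatibility gene, had folds of 4.69, 7.00, 5.91, 4.40 and 6.11 at 12 months and of 5.17, 6.17 and 7.56 at 18 months, which overlap. The other 2 lay among Obox4 pseudogenes of chromosome 7. The one at 15432332 to 15432907, 33787 bp from Obox2, a homeobox gene, had a median fold of 5.39 at 12 and 5.62 at 18 months. The one at 15023586 to 15024414 had 6.76 and 6.51. None of the 4 met the rule in equal-length lists, where 4 to 8 older libraries and no younger one kept them.

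The 17 regions that met the rule in both list lengths are described one by one, since they met the rule at both lengths. They were picked out after their values were seen. They fall into 8 that 2 months replicate 1, the only younger library of set 2, also called, and 9 that it did not. The 8 set 3 libraries made 7 calls on the first block and 17 on the second. The rule caps these calls at 2 younger calls a region. In the first block 2 months replicate 1 already made 1 of them, so the 2 counts are no contrast between the blocks. For the first block, all 9 libraries of set 2, young and old, called each of the 8. The blocks are defined by that library's calls, so its place in each is no evidence on age or set.

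The block that 2 months replicate 1 shared with the older libraries lay mainly in repeated gene arrays. Of its 8 regions 5 were on chromosome 8, and 4 of those near the predicted genes Gm51571, Gm51591, Gm51593 and Gm51595. The fifth, at 123602811 to 123603132, lay among genes of 5S ribosomal RNA. The region at chr7:59703992-59704314 lay in Snhg14, the long non-coding host of small nucleolar RNA arrays. How reads matching several copies were placed is not given in the sources used here, so the position of these reads is uncertain. The other 2 lay inside Grk5, a kinase that desensitises G-protein-coupled receptors (chr19:60924574-60924892), and far from any gene end (chr14:17596474-17596893). Widths had a median of 337 bp, against 608 bp for all members, and local backgrounds ran from 3.14 to 25.8.

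In 2 months replicate 1 the fold lay within the range of the older libraries at 6 of these 8 regions and above it at 2. The region near Gm51591 had a fold of 6.09 in 2 months replicate 1 and 4.33 in replicate 4. At 12 months it had 5.91, 5.98, 7.26, 5.56 and 6.25, and at 18 months 5.73, 6.40 and 8.24. The region on chromosome 14 had 8.82 in 2 months replicate 1, above its folds of 7.03, 7.00, 5.91, 6.12 and 6.34 at 12 months and above its range of 6.68 to 8.29 at 18 months. The Grk5 region had 7.05 in 2 months replicate 1 and 5.88 in replicate 3, both within its range of 5.81 to 7.99 at 18 months, while the range at 12 months was 6.09 to 9.18. The median fold at 18 months was above that at 12 months in 4 of the 8.

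The 9 regions that 2 months replicate 1 did not call were of ordinary width, 600 to 727 bp, and of ordinary local background, 3.11 to 3.27. The region near Arntl (chr7:113172273-113172921, 5550 bp from a gene end), which encodes the core clock factor also called Bmal1, had a fold of 4.65 in 2 months replicate 4 and 4.48 in 6 months replicate 2. At 12 months its folds were 4.92, 6.52, 5.06, 4.73 and 6.58, and at 18 months 8.04, 8.93 and 10.9. Every library of 18 months lay above every one of 12 months. The region 2 bp from an end of Xpc (chr6:91488704-91489303) lay 14997 bp from the nearest start site, that of Tmem43. Xpc recognises DNA damage for excision repair. The region had 5.14 in 2 months replicate 4 alone among the younger. It had 5.39, 5.31, 3.59, 4.40 and 4.93 at 12 months and 7.06, 8.39 and 10.0 at 18 months, again without overlap.

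Other regions of the block lay near genes of varied function. The one near Ifnb1, the gene of interferon beta (chr4:88515314-88516040, 5985 bp from an end), had 6.09, 5.80, 4.85, 3.91 and 5.64 at 12 months and 6.68, 7.68 and 8.26 at 18 months. The one inside Tram2, a membrane protein of the endoplasmic reticulum that takes part in collagen synthesis (chr1:21014436-21015057), had 6.09, 6.28, 4.22, 5.14 and 5.64, against 6.48, 8.02 and 10.0. Neither pair of ages overlapped. The Tmcc2 region (chr1:132367576-132368188) covers a start site inside the gene, 11261 bp from its nearest end, whose promoter window is printed above. It had 5.39, 6.78, 5.27, 4.61 and 6.34 at 12 months and 6.65, 8.95 and 9.87 at 18 months, with an overlap. Near Ptn, which encodes the growth factor pleiotrophin (chr6:36818973-36819617), 12 months replicate 5 had no peak, the other 4 had 5.62, 6.52, 5.91 and 5.63, and 18 months had 5.94, 7.27 and 10.0. The region 37874 bp from Nfat5, a factor of the response to osmotic stress (chr8:107254877-107255561), had medians of 5.15 and 6.66 and overlapped. The last 2 lay over 50 kb from any protein-coding gene end, on chromosome 4 (31094257 to 31094953, medians 5.38 and 8.83) and chromosome 6 (84329058 to 84329703, medians 5.64 and 8.85, without overlap).

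**Figure D3:**
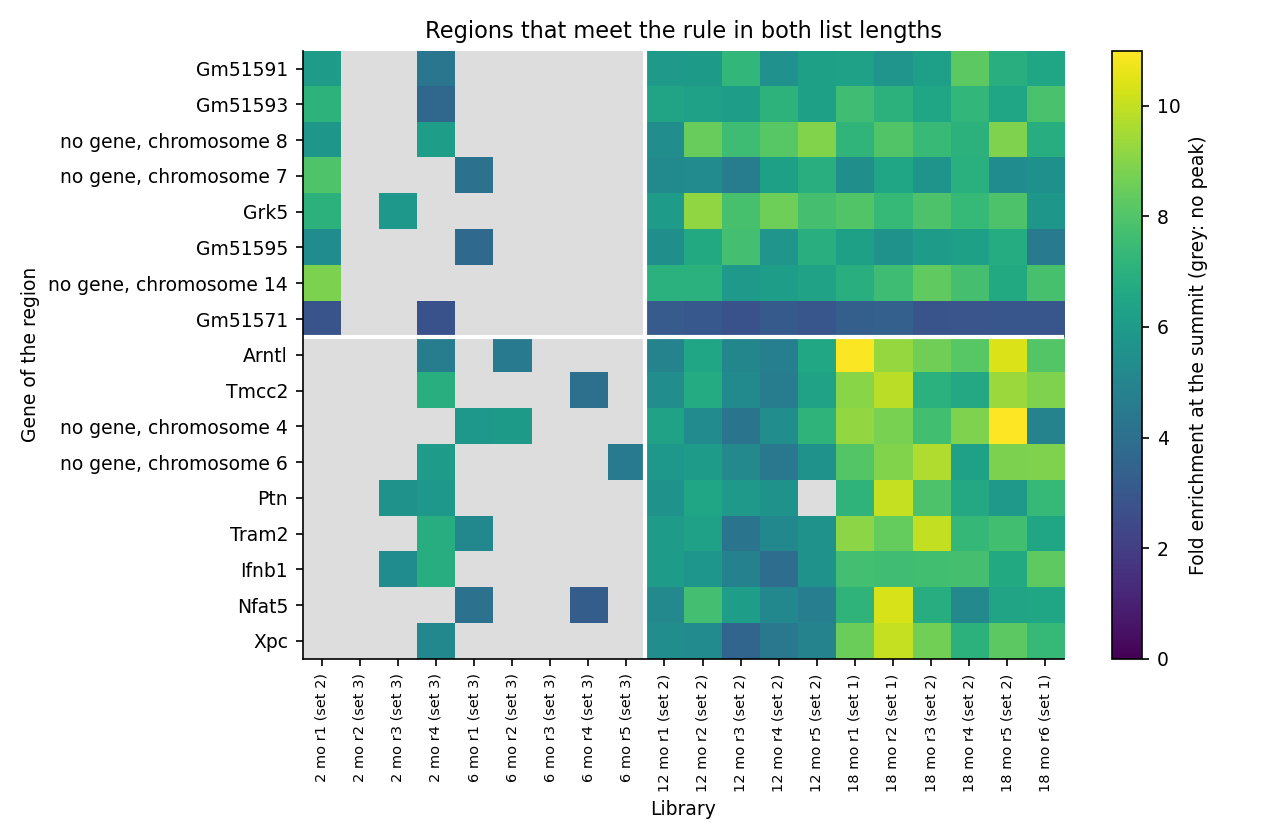
Fold enrichment at the summit (colour) of the 17 regions that met the rule in both list lengths (rows, named by gene), in each of the 20 libraries (columns, with set). Grey is no peak. The upper 8 rows are called by 2 months replicate 1 of set 2 and have like colours at 12 and 18 months, and the lower 9 are not called by it and have medians of 5.39 at 12 and 8.09 at 18 months.

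The folds of 12 and 18 months must be read against all regions, because fold ran higher at 18 months nearly everywhere. The median fold over all peaks of a library was 5.59 to 5.84 at 12 months and 5.91 to 7.12 at 18 months. Of 17325 regions called by all 11 older libraries, 95.7% had a higher median fold at 18 months, and 3355 (19.4%) had every library of 18 months above every one of 12 months. Among the 67 members called by all 11, the median was higher in 60 (89.6%), and 8 (11.9%) had no overlap, with 0 the other way. The 16 of the 17 regions above that all 11 called had 5 without overlap, all of them in the block that 2 months replicate 1 did not call. The members as a whole thus did not stand above the background in this measure.

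Ranks within equal-length lists take that shift out. An exact two-sided permutation test of the mean rank of 18 against 12 months over all 462 arrangements was run on the 13068 regions with a peak in all 11 older equal-length lists. After Benjamini-Hochberg adjustment it called 0 (0%), and 1775 (13.6%) had an unadjusted p under 0.05. The smallest p this design allows is 0.00216, so the adjustment can call a region only if many regions reach p-values near it. A change confined to few regions could not be called. Only 8 members could be tested, all of them among the 17, since a member must be strong in every older list to enter. None was called, and 4 had an unadjusted p under 0.05, with 2 stronger and 2 weaker at 18 months. The 18 months libraries of set 2 alone gave 0 called and 2 of 10 members unadjusted.

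The Arntl region showed the largest gap in rank. Its ranks at 12 months were 18906, 14987, 18990, 17136 and 14266 of 19144, where 1 is the strongest, and at 18 months they lay between 9363 and 14071. The mean was 16857 at 12 and 11806 at 18 months, a gap of 5051 ranks toward stronger peaks at 18 months (exact permutation p = 0.00216, adjusted 0.186). All 6 libraries of 18 months ranked it stronger than any of 12 months. The chromosome 6 region differed by 3575 ranks the same way (exact permutation p = 0.0303, adjusted 0.316). The Snhg14 region went the other way, from a mean rank of 11006 to 15815 (exact permutation p = 0.0216, adjusted 0.286), as did the Gm51591 region, from 9629 to 13696 (exact permutation p = 0.0346, adjusted 0.331). None of these passed the adjustment.

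**Figure D4:**
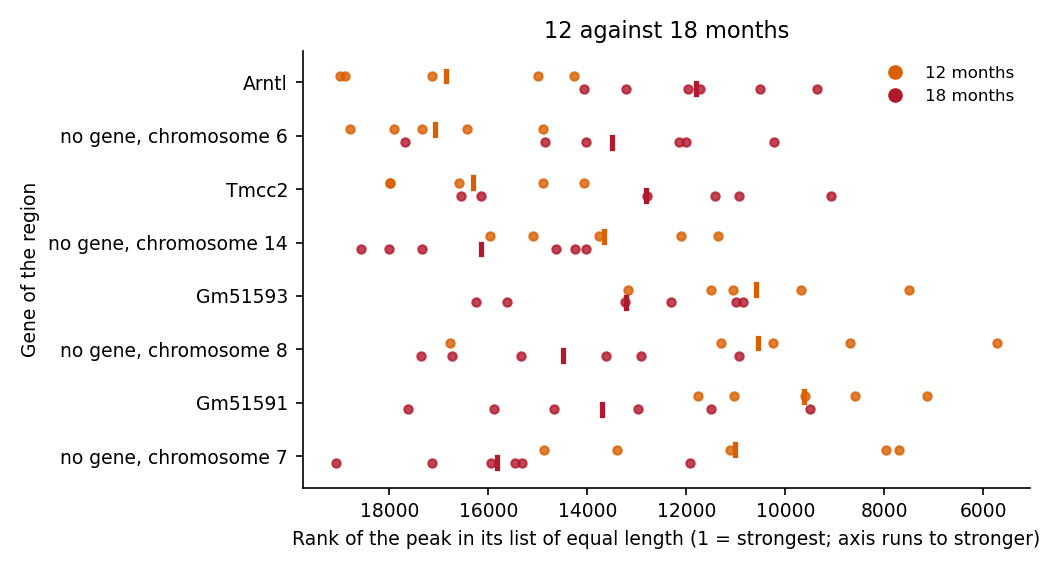
Rank of the strongest peak in equal-length lists (horizontal axis, 1 for the strongest, running to stronger on the right) for the 8 members that could be tested (rows, named by gene). Points are the 5 libraries of 12 and the 6 of 18 months and bars are means. The Arntl region is ranked stronger by all 6 libraries of 18 months, and the 5 lower rows have weaker means at 18 months.

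Sex showed no called difference, under the same limit on what can be called. The same exact permutation test of 5 males against 6 females of the older ages called 0 of 13068 regions (0%), with 697 (5.33%) at an unadjusted p under 0.05. Among the 8 members tested, 0 had an unadjusted p under 0.05, and the smallest was 0.0801 (exact permutation, adjusted 0.934). The sexes are mixed within 12 and 18 months.

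The position of members in the genome resembled that of other regions called by as many libraries. Of the 625, 91 (14.6%) were gene-end regions, at most 1 kb from where a protein-coding gene starts or stops, 289 (46.2%) elsewhere inside a gene, 166 (26.6%) within 50 kb of an end and 79 (12.6%) farther away. The 4033 other regions called by 9 to 13 libraries had 14.7%, 46.7%, 25.0% and 13.6%. All regions had 23.1%, 39.5%, 22.5% and 14.8%. A start site lay within 1 kb of 60 of the 609 members with a start site on their chromosome in the table (9.85%), against 11.6% of regions of like call count and 19.6% of all. Members had a median width of 608 bp, against 560 and 516 bp.

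Regions with the opposite pattern differed from the members in position. With the limits swapped, 286 regions were called mostly at 2 and 6 months. In lists of equal length the swapped limits were met by 248 regions and the member rule by 109. Of the 286 regions, 0.350% lay at a gene end and 45.8% over 50 kb from one, with a median width of 416 bp. They are given only as a contrast, and the difference was not tested.

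**Figure D5:**
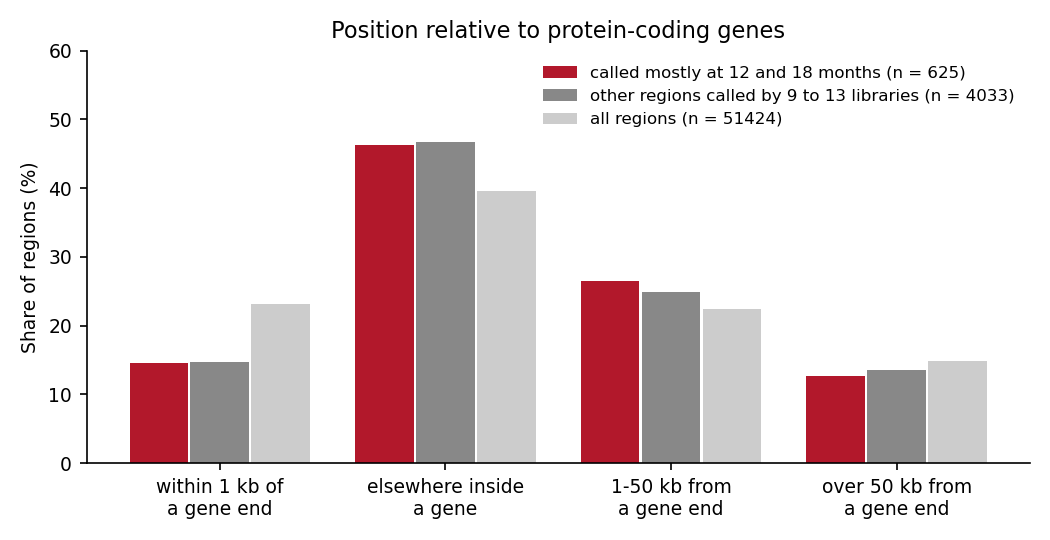
Share of regions (vertical axis, %) in 4 classes of distance to protein-coding genes, for the 625 members, the 4033 other regions called by 9 to 13 libraries and all 51424 regions. Members and regions of like call count have nearly the same bars, for example 14.6% and 14.7% at gene ends.

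Members were spread over all 19 chromosomes, from 5.78 per 1000 regions on chromosome 16 to 16.1 on chromosome 14. The median gap between neighbours was 1767 kb. They were assigned to 517 genes, 491 of them with 1 member. Genes with 3 were Tbc1d1, a regulator of glucose transporter traffic, Stard13, a RhoA inhibitor, and Abca4, a transporter of retinoids. Only 22 members lay in the 6 groups of at least 3 within 100 kb. One group, 5 members among 24 regions of chr2:26364615-26546969, held Snapc4, Notch1 and Egfl7. Another 5 lay among 44 regions of chromosome 7, 59597455 to 59799875, within Snhg14. No member held a RefSeq miRNA hairpin. The first 35 Mb of chromosome 1 held 3 members (0.48%), against 1.74% of all regions.

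A younger library that did not call a member had a peak within 1 kb of 3.14% to 17.6% of the members it missed, with the highest share in 2 months replicate 4. Older libraries had one within 1 kb of 3.77% to 40% of the members they missed, the highest of these over 5 members.

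Listed genes carried members about as often as they carried any region. The 22 lists cover pathways of brain endothelium and, in 7 of them, markers of other cell types. Of 326 listed genes found on chromosomes 1 to 19, 17 held 20 members, or 3.2% of members, beside 3.18% of all regions and 4.49% of regions of like call count. The endothelial identity list held 0.8% of members, 0.436% of all regions and 0.818% of regions of like call count. It had members at 5 of 20 genes: Egfl7, a secreted factor of vessel growth, Ets1, a transcription factor, Flt1, a VEGF receptor that can act as a decoy, Tie1, an orphan receptor kinase, and Vwf, the platelet-binding glycoprotein of haemostasis. All 5 were weak, with mean percentiles from 20.1 at Vwf to 28.6 at Egfl7. The Egfl7 region (chr2:26546479-26546969) had a median fold of 4.13 at 12 and 4.27 at 18 months, and its 2 younger callers had 4.50 and 5.03. The Flt1 region (chr5:147761237-147761902), 34799 bp from an end, had 4.30 and 4.77, and was kept in 1 older equal-length list. The Vwf region (chr6:125558880-125559948), inside the gene, had 3.98 and 4.54 and was kept in none.

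Of the signalling lists, Notch signalling (14 genes) held 2 members, 0.32% of members beside 0.150% of all regions and 0.273% of regions of like call count. Notch1, the receptor of arterial fate and sprouting control, had 2 members. The one inside the gene (chr2:26459352-26459973) had no younger call, with medians of 3.33 at 12 and 3.55 at 18 months and the lowest mean percentile of all members, 7.50. The other (chr2:26534446-26535068) had 4.56 and 5.77. The 18 Wnt genes held 0.16% of members, 0.331% of all regions and 0.645% of regions of like call count. Only Lrp6, a co-receptor of the pathway that sets up the barrier, had a member (chr6:134558753-134559236), with 4.75 and 5.58. The 19 clock genes held 0.32% of members, 0.191% of all regions and 0.223% of regions of like call count. Arntl, described above, and Npas2, which pairs with the Arntl protein, had a member each. The Npas2 region (chr1:39192613-39193317), 385 bp from an end of the gene, was called by all 11 older libraries and had folds of 4.16, 5.02 and 6.25 at 12 and of 4.63, 5.34 and 6.48 at 18 months, which overlap. The matrix genes held 0.48% of members, 0.218% of all regions and 0.347% of regions of like call count. Lamc1, the laminin gamma 1 chain, had 2 members and Nid1, which links laminin to collagen, had 1.

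The lists of p53, senescence and DNA repair (0.32% of members, 0.109% of all regions), oxidative stress (0.16% and 0.0914%) and glucocorticoid and stress response (0.48% and 0.179%) held few members. Of regions of like call count the same lists held 0.124%, 0.0248% and 0.248%. Their genes were Xpc, described above, Glb1, the lysosomal enzyme read as senescence-associated beta-galactosidase, Nfe2l2, the regulator of antioxidant genes also called Nrf2, Fos, an immediate early factor, and Nr3c2, the mineralocorticoid receptor, with 2. The Nfe2l2 region (chr2:75716433-75717035), 11770 bp from an end, had a median fold of 5.12 at 12 and 6.19 at 18 months. The stronger Nr3c2 region (chr8:77132795-77133344) had 4.92 and 6.63. The Fos region (chr12:85487525-85488052) had 3.92 and 3.99. The 2 younger callers of the Nfe2l2 region had 4.48 and 4.65, within its range of 3.59 to 5.62 at 12 months.

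Members at 0 genes were found in several lists, given here with their share of all regions. These were tight and adherens junctions (15 genes, 0.235%), barrier transporters and transcytosis (18 found, 0.292%) and TGF-beta and BMP (18, 0.342%). Inflammation and leukocyte adhesion (19, 0.128%) and interferon and class I histocompatibility (22, 0.107%) had 0 too. That last list does not hold Tapbp, Mndal, H2-T3 or Ifnb1, which had members. Markers of astrocytes, microglia, oligodendrocyte lineage, neurons, blood cells and fibroblasts also had 0. Among markers of pericytes and smooth muscle only Notch3, the receptor of mural cells, had one (chr17:32099838-32100637), and it was kept in no equal-length list.

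The sorted cell type was checked by peaks within 1 kb of gene ends. Of 20 endothelial identity genes, 14 to 18 had one in younger and 17 to 18 in older libraries, and 14, Cdh5 and Tek among them, had one in every library, while Erg and Egfl7 had none in any. Of 13 blood cell markers none had one in any library. Pericyte markers had 0 to 2 of 13 in younger and 0 to 1 in older libraries, astrocyte markers 2 to 4 of 10 at both, and microglial markers 1 to 2 of 12 at both. Oligodendrocyte markers had 0 to 1 of 9 in younger and 1 in older libraries, neuronal markers 0 to 1 and 0 to 2 of 12, and fibroblast markers 0 to 2 and 0 to 1 of 10. The ranges of marker peaks of other cell types thus overlapped between younger and older libraries.

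At the ends of genes, members outside the 17 were weak too. Hoxc6, a homeobox gene, had a member 752 bp from an end (chr15:102998978-102999867) with no younger call and 10 older ones. Its median fold was 4.88 at 12 months, over 4 libraries, and 7.30 at 18 months, and all 6 libraries of 18 months (6.34 to 9.51) lay above those of 12 months (3.37 to 6.11). The Tapbp promoter region (chr17:33919372-33919809) had medians of 3.79 and 3.93, and its younger callers, 2 months replicate 4 and 6 months replicate 1, had folds of 3.66 and 3.53, within its range of 3.10 to 4.38 at 12 months. The Mndal promoter region (chr1:173880009-173880582) had 5.42 and 6.44, and the Snapc4 region (chr2:26380159-26380809) had 4.22 and 5.80. None of the 4 was kept in more than 6 older equal-length lists.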

How the data were processed

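The data are 20 narrow-peak lists, 1 per library. FastQC, Trim Galore 0.4.2, Picard 1.115, MACS2 2.1.0 and the build mm10 are named in the submitters' processing notes, without role or order. Neither the aligner nor any read shift is given in the sources used here. In the deposited lists each peak has a score, a fold (summit pileup as a ratio to background), p-value and q-value as −log10, and a summit offset. These are the authors' values per peak, used here only to describe, rank and filter peaks. No read counts were used, so depth is unknown. Lists hold 19829 to 39421 peaks. Pileup and background were recovered from fold and p for 2000 peaks per library and for each library's strongest peak in each member. Both were 100% whole at a tolerance of 0.01 on −log10 p.

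Peaks were joined by overlaps of 1 bp on chromosomes 1 to 19. The members and gene lists were chosen with earlier results of these data known. Ranks used −log10 q, then −log10 p, then fold. Tests were exact permutations with Benjamini-Hochberg adjustment at 0.05, checked on simulated data. Intervals are exact Clopper-Pearson at 95% and cover counting error only. A region takes the protein-coding RefSeq gene (GRCm38.p6) it lies in or with the nearest end within 50 kb. No test was made of which gene a region controls. Regions named are those called by all older and no younger library, the 10 strongest at gene ends, up to 3 per gene list, groups within 100 kb, regions at the limits and the largest rank differences, and the 17 meeting the rule in both list lengths. Of 62 such regions, those bearing on the text are printed. The motif search planned around summits was limited to promoter windows, since no genome was used here. Python 3.11.15, numpy 2.4.6, pandas 2.3.3, scipy 1.17.1 and matplotlib 3.10.9 were used.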

Additional observations from a re-analysis of the deposited data

Results flagged for a closer look

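Within the groups of each age, 24 sets of per-library values were looked at for 1 library far from the rest, and chance picks out about 1 in 20 such groups. The share of member-like regions chosen without it that 12 months replicate 4 called was 23.6%, while the other libraries of 12 months called 61.2% to 73.2%. The same library had 22530 peaks, against 27977 to 29294 in the others of its age. In lists of equal length its share of 56.1% lay next to the 59.6% to 69.5% of the others. In those lists 2 months replicate 4 stood apart with 52.3%, against 33.6% to 35.3% in the others of 2 months. The background recovered from fold and p was 3.74 in 12 months replicate 3, against 3.09 to 3.27 in the others of that age.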

How the results depend on the processing

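The number of regions meeting the rule was 625, with 109 in lists of equal length and 80 with limits of 1 call on each side. With limits of 1 and 1 it was 5647 in males alone and 379 in females alone. Males have 3 younger and 5 older libraries and females 6 and 6, so these limits ask less in males. The 2 counts are thus no comparison of the sexes. The number ran from 637 to 1260 with 1 library left out, all above 625 because the limits then ask less. It stayed within 1.5 times of 625 with a −log10 q of at least 5 (598, of which 253 are members) and with 50% of a region covered (817, of which 262 are members). The share of members at gene ends was 14.6%, 24.7% with 50% covered and 19.1% under that q limit. The share inside genes was 46.2%, and 37.6% in lists of equal length and 37.1% with 50% covered. The share over 50 kb from a gene end was 12.6%, and 15.6% in lists of equal length. The cause of these shifts was not tested. The median held-out share of older libraries exceeded that of younger ones by 48.7 points over all peaks and by 34.1 in lists of equal length. Both exact tests called 0 regions in every setting run, leaving out each older library included (0 to 0). The smallest p a design allowed in these tests was 0.00216 to 0.0179. A change confined to few regions could thus not be called in any setting. Of 57 named members, 17 also met the rule in lists of equal length and 40 did not. No paired analysis was possible because replicates were numbered in the order of the samples and pair nothing. Depth limits what a missing peak shows, since a weak site can go uncalled in a short list.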

Other observations

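The X chromosome, outside the choice of members, held 19 regions of 2202 (0.863%) that met the same rule, next to 1.22% on chromosomes 1 to 19.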
